A study of Mus musculus with 6 samples.

Results

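The lysosome and vacuole genes of the lateral ventricular choroid plexus, the epithelial tissue that secretes cerebrospinal fluid and forms the blood-CSF barrier, were examined in Swiss Webster mice at embryonic day 15 (E15) and in the adult. Members were the transcript clusters (the array's gene-sized units) of the gene-level and splicing tables whose cellular component annotation contained the text lysosom or vacuol. Solute carrier (Slc), Abc and H2- symbols were left out, as were clusters also annotated to mitochondria, immune response, antigen processing or lipid metabolism. Of 3956 clusters in the joined tables, 45 held the text and 35 remained as members, which stood for 34 genes because Arsb had 2 clusters. A lysosome term was present in 30 members, and the other 5 carried only a vacuole or autophagic vacuole term. For 14 members the term did not rest on electronic annotation alone.

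RNA of whole dissected plexus was hybridised to exon arrays, with 3 arrays of pooled plexuses from E15 pups of mixed sex (30 per pool by the labels) and 3 arrays of pools from adult females (10 per pool), all untreated and described as healthy. The description of the arrays gives other pool sizes than the labels and calls the E15 tissue unsexed. It puts the adults at over 3 months, whereas 10 weeks is the adult age listed for the morphological work. The tables hold 1 merged value per age and cluster, on a log2 scale centred within each cluster, so no error, replicate check or p-value belongs to any value below. All differences are adult minus E15 on that log2 scale, and because of the centring a level cannot be set against that of another gene. Age and sex of the pools cannot be told apart, and in whole tissue fewer cells of a type and less RNA per cell cannot be told apart either.

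Lysosomes are acidic, membrane-bound compartments in which hydrolases break down material delivered by endocytosis and autophagy. Many soluble hydrolases reach them on mannose phosphate receptors, a proton pump keeps them acidic, and membrane proteins carry the products out. The plexus epithelium takes up and transports proteins between blood and cerebrospinal fluid, and endosomes and lysosomes lie along the endocytic route. Transcription factor TFEB binds a promoter element of many lysosomal genes, the CLEAR element, whose core is an extended E-box.

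That core, TCACGTGA, was found in the promoters of 4 of the 23 member genes with an entry in the RefSeq promoter table (GRCm38.p6, 250 bases before to 50 after the gene start). The 4 stretches are shown because they carry the element in the part before the start, and the capitals mark each match. They are written 5′ to 3′ on the strand of the gene, and end at the base before the annotated start.
Dpp7, chr2:25356333-25356582, minus strand: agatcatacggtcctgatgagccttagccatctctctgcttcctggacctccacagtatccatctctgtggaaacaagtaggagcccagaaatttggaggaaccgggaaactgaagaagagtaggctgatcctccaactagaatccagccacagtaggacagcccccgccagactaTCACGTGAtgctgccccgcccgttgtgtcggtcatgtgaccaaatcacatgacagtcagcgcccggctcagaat
Gla, chrX:134601006-134601255, minus strand: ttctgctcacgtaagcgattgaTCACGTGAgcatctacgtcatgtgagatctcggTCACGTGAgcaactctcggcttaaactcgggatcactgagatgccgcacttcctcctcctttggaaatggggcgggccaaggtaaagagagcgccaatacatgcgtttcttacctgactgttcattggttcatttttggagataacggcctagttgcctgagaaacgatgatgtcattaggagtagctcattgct
Mcoln1, chr8:3500269-3500518, plus strand: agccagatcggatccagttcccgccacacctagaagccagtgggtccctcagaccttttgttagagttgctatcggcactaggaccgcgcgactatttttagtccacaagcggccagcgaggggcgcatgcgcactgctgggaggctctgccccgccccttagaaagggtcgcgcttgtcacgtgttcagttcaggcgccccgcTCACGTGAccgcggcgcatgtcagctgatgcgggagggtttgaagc
Igf2r, chr17:12769707-12769956, minus strand: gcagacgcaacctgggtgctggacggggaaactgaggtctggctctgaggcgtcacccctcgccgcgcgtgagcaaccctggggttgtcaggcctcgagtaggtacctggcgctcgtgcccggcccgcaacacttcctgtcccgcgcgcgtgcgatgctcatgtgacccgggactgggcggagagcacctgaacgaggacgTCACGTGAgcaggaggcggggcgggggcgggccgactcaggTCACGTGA

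Gla and Igf2r each held 2 matches, beginning 228 and 195 bases before the start of Gla and 49 and 8 bases before the start of Igf2r. The match of Dpp7 began 74 bases and that of Mcoln1 46 bases before the start. The start used for Dpp7 lay 57 bases from the outer edge of the annotated gene, and for the other 3 it was that edge. The element was present in 1.12% of the 27025 genes with a promoter in the table and in 1.42% of the 3099 such genes in the joined tables, against 17.4% of the member genes (4 of 23, 95% Wilson interval 6.98 to 37.1%). The shorter E-box CACGTG, which lies inside the longer element, was present in 8 of the 23 (34.8%), against 10.3% of the joined tables' genes. Its other holders were Eva1a (Tmem166 in the tables), Gaa, Ctsl and Dnpep. The palindrome TGACGTCA, the cAMP response element searched for comparison, was in 0 of the 23 (interval up to 14.3%) and in 2.97% of the joined tables' genes. All 3 motifs read alike on both strands. Lysosomal genes are where the CLEAR element was first described, so its share among annotated members is a description of their sequences and not of their expression. Among the members it was in 2 of 13 genes at least 2-fold higher in the adult and in 2 of 9 below 2-fold, and not in the promoter of Tmem9. Among all genes of the joined tables it was in 1.54% of those at least 2-fold higher in the adult and in 0.942% of those at least 2-fold higher at E15. The other 11 member genes had no promoter entry and were not searched.

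Most members were higher in the adult plexus. The adult value was the higher in 31 of the 35 (88.6%), against 45.9% of all clusters. At least 2-fold higher in the adult were 17 of the 35 (48.6%), where the same share over the joined tables was 22.9%. Only 1 member, Tmem9, was at least 2-fold higher at E15 (2.86%), against 24.4% over the joined tables. The median difference of the members was 0.92 (1.89-fold) with quartiles of 0.52 and 1.37, and that of all clusters was -0.16.

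**Figure D1:**
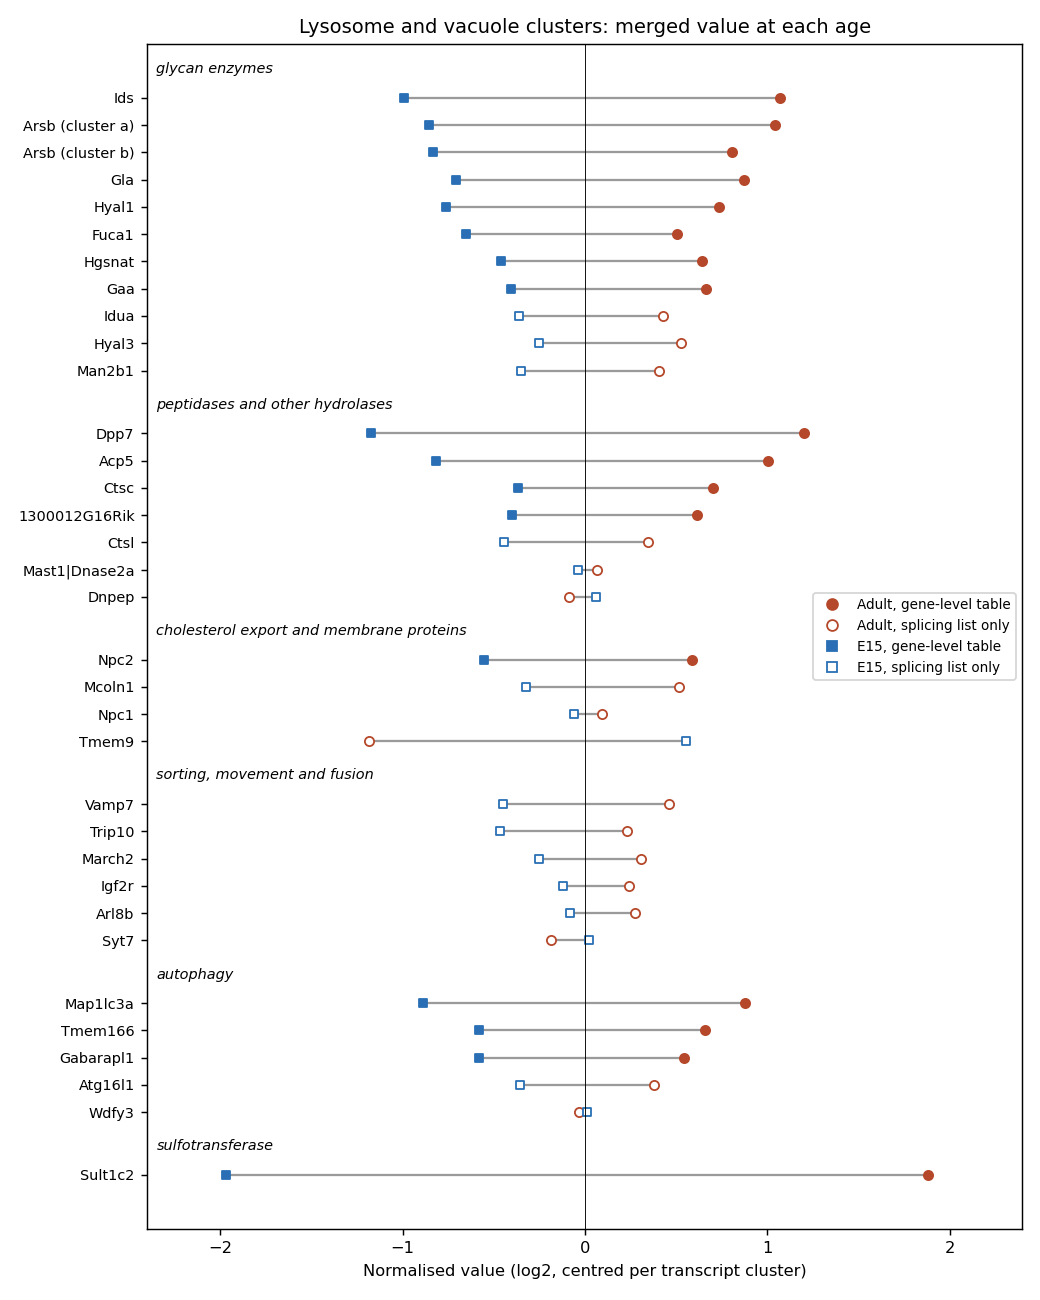
Merged normalised value of 34 member clusters in adult (circles) and E15 (squares) plexus, on the log2 scale centred within each cluster and grouped by role. Filled symbols mark the 17 clusters of the gene-level table and open symbols 17 found only in the splicing list. The adult symbol lies to the right in all but Dnpep, Tmem9, Syt7 and Wdfy3.

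How the tables were made bears on these counts. Entry into the gene-level table required a difference of at least 2-fold under the authors' filter, so the 17 members in it had to differ and the filter fixes the size, though not the direction. All 17 were higher in the adult, and 48.8% of the 1805 clusters in that table were. The splicing list was selected on exon usage between the ages. It held 27 members, 9 of them also in the gene-level table, and the adult value was higher in 23 of the 27, with a median of 0.78, against 44.3% of its 3342 other clusters, with a median of -0.19. At 2-fold, 9 of the 27 members were higher in the adult and 1 at E15, where the background shares of that list were 17.6% and 20.5%. The 18 members found there and not in the gene-level table are those that did not pass its 2-fold limit or its test, so that split bears on their differences (median 0.52) and no comparison is made with them. Lysosomal genes that passed neither selection were not analysed here, so none of these counts is a share of all lysosomal genes.

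**Figure D2:**
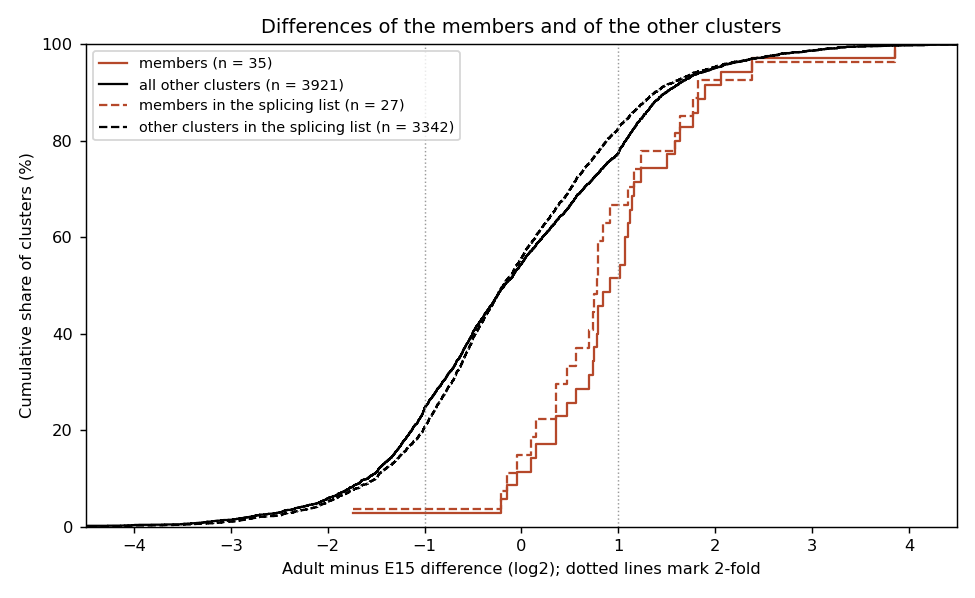
Cumulative share of clusters (%) against the adult minus E15 difference (log2), for the 35 members and the 3921 other clusters (solid lines) and for the 27 and 3342 of these in the splicing list (dashed lines). Both member lines lie to the right of their comparison over most of the range, with medians of 0.92 against -0.18 and 0.78 against -0.19. The single step near -1.74 is Tmem9.

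A scale for these values comes from the 15 genes of the joined tables that had exactly 2 clusters of their own. The difference between the ages ran in the same direction in both clusters for all 15, and the clusters disagreed by a median of 0.29 and at most 1.40. Both clusters of a gene had to pass a selection to be counted, which bears on this agreement. Arsb, described below, is among the 15. In the order of the 35 members, 31 of the 34 pairs of neighbours lay closer than 0.29, so their order carries little weight. The gap between Sult1c2 and the next member, 1.48, was the widest at the adult end of the order.

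The enzymes that degrade glycans formed the largest group of members. All 12 of their clusters were higher in the adult, against 45.9% of all clusters. At least 2-fold higher were 8 of them (66.7%, against 22.9% over the joined tables). All 8 were in the gene-level table, as were all 17 members counted as at least 2-fold higher in the adult. Ids, the iduronate sulfatase of heparan and dermatan sulfate breakdown, stood at -0.99 at E15 and 1.07 in the adult, a difference of 2.06 (4.18-fold). Arsb, which removes sulfate from dermatan and chondroitin sulfate, had 2 clusters, from -0.85 to 1.04 and from -0.83 to 0.81. Those clusters differed between the ages by 1.89 and 1.64, so their disagreement of 0.25 was small beside either difference. Gla, the alpha-galactosidase that trims globotriaosylceramide, went from -0.71 at E15 to 0.87 in the adult, a difference of 1.58. Its promoter, shown above, holds the CLEAR core in duplicate. Hyal1, a lysosomal hyaluronidase, lay at -0.76 and 0.73, a difference of 1.497 (2.82-fold). The related gene Hyal3 lay at -0.25 and 0.53, a difference of 0.78. The annotated spans of Hyal1 and Hyal3 overlap, and which probes each cluster used is not given in the tables.

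Among the remaining glycan enzymes, Fuca1, the lysosomal fucosidase, lay at -0.65 and 0.50, a difference of 1.16. Hgsnat, which acetylates heparan sulfate at the lysosomal membrane so that breakdown can go on, lay at -0.46 and 0.64, a difference of 1.10. Gaa, the acid glucosidase that degrades glycogen, lay at -0.41 and 0.66, a difference of 1.07. Idua, the iduronidase that acts after Ids, reached 0.79 and Man2b1, the lysosomal mannosidase, 0.75. The 7 clusters of Ids, Idua, Hgsnat, Arsb, Hyal1 and Hyal3, which act on glycosaminoglycans, had a median of 1.497, and 5 of them were at least 2-fold higher in the adult (71.4%, against 22.9% over the joined tables).

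Of the 7 clusters of peptidases and other hydrolases, 4 were at least 2-fold higher in the adult (57.1%, against 22.9% over the joined tables). Dpp7, a dipeptidyl peptidase that cuts after proline, stood at -1.17 at E15 and 1.20 in the adult, a difference of 2.38 (5.19-fold), and only Sult1c2 among the members differed more. Acp5, the tartrate-resistant acid phosphatase known from osteoclasts and macrophages, went from -0.82 to 1.00, a difference of 1.82. Ctsc, the cathepsin that activates granule serine proteases, lay at -0.37 and 0.70, a difference of 1.07. The cluster 1300012G16Rik, named Plbd2 in RefSeq and related to phospholipase B, was the member closest above the 2-fold limit, with a difference of 1.02. Ctsl, a cysteine protease of broad specificity, differed by 0.79 (1.73-fold). The cluster shared by Dnase2a, the acid DNase of lysosomes, and its neighbour Mast1 lay near 0 at both ages, with a difference of 0.10, and its signal cannot be assigned to either gene. Dnpep, a cytosolic aminopeptidase annotated to the vacuole, lay at 0.06 at E15 and -0.09 in the adult, a difference of -0.15.

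Lysosomal membrane and cholesterol proteins were mixed. Npc2, the soluble protein that binds cholesterol in the lumen, stood at -0.55 at E15 and 0.59 in the adult, a difference of 1.14 (2.21-fold). Npc1, the membrane protein to which Npc2 hands cholesterol, lay at -0.06 and 0.09, a difference of 0.15 (1.11-fold). Of the 2 proteins of the cholesterol export route, only the soluble one passed the 2-fold limit. Mcoln1, the cation channel that releases calcium from lysosomes, lay at -0.32 and 0.52, a difference of 0.84, and its promoter carries the CLEAR core. Tmem9, a membrane protein of late endosomes and lysosomes, was the exception among all members, with 0.55 at E15 and -1.19 in the adult, a difference of -1.74 (3.34-fold higher at E15). Tmem9 was listed only in the splicing list, where exon usage was also scored as different. Despite a difference past 2-fold, Tmem9 was not in the gene-level table, which also required passing the authors' test. Its values at the 2 ages were also the least symmetric among the members, with a sum 0.63 away from 0 where the median of the members was 0.09.

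None of the 6 members of sorting, movement and fusion reached 2-fold in either direction, where the shares over the joined tables were 22.9% and 24.4%. All 6 were in the splicing list only, and of the 2133 other clusters found only there 1.17% were at least 2-fold higher in the adult and 1.92% at E15. Vamp7, a SNARE that fuses lysosomes with endosomes and the plasma membrane, was the member closest below the limit, at -0.45 and 0.46, a difference of 0.92 (1.89-fold). Trip10, an adaptor between membranes and actin, lay at -0.46 and 0.23, a difference of 0.70. March2, a membrane-bound ubiquitin ligase whose symbol the table gives as the date 2-Mar, lay at -0.25 and 0.31, a difference of 0.56. Igf2r, the cation-independent mannose phosphate receptor that delivers hydrolases, differed by 0.36 (1.28-fold). That difference was smaller than those of all 12 clusters of glycan enzymes, and its promoter has the CLEAR core in duplicate. Arl8b, the small GTPase that couples lysosomes to kinesin, also differed by 0.36. Syt7, a calcium sensor of lysosome exocytosis, differed by -0.21 (1.16-fold higher at E15).

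Among 5 members of autophagy, 3 were at least 2-fold higher in the adult (60%, against 22.9% over the joined tables). Map1lc3a (LC3A), a ubiquitin-like protein that coats autophagosomes, stood at -0.89 at E15 and 0.88 in the adult, a difference of 1.77 (3.40-fold). Gabarapl1, of the same protein family, lay at -0.58 and 0.54, a difference of 1.12. Tmem166, which promotes autophagy from lysosomes and the endoplasmic reticulum, lay at -0.58 and 0.66, a difference of 1.24. Atg16l1, part of the complex that attaches LC3 proteins to membranes, differed by 0.74 (1.67-fold). Wdfy3, an adaptor for protein aggregates, hardly differed, with 0.01 at E15 and -0.03 in the adult.

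Sult1c2 differed more than any other member, from -1.97 at E15 to 1.88 in the adult, a difference of 3.85 (14.5-fold). It encodes a sulfotransferase of the cytosol that is annotated to the lysosome, and it belonged to none of the lysosome lists described next.

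The pathway beyond the annotation was described from 6 lists of lysosomal genes with 204 symbols, of which 57 clusters were in the joined tables. Of these, 25 were members. Among the 57, 25 were at least 2-fold higher in the adult (43.9%, against 22.9% over the joined tables). Only 1, Ctse, was at least 2-fold higher at E15 (1.75%, against 24.4%). The 32 clusters that were not members had a median of 0.55, with 11 at least 2-fold higher in the adult (34.4%). The proton pump list held 25 symbols and had 4 clusters in the joined tables, none of them a member. All 4 came from the gene-level table and so had passed the 2-fold filter. Atp6v0e2 differed by 1.44, Atp6ap2 by 1.32, Atp6v1a by 1.15 and Atp6v0a2 by 1.08. Each was in the adult direction, as were 48.8% of the clusters of the gene-level table. Of 21 clusters in the list of glycosidases, sulfatases, lipases and phosphatases, 10 were at least 2-fold higher in the adult (47.6%) and 0 at E15. The shares over the joined tables were the same 22.9% and 24.4%, and the median of the list was 0.88. Sumf1, which activates sulfatases such as Ids and Arsb, differed by 1.15, and the sulfatase Arsg by -0.41. Of 7 clusters of proteases and cofactors, 3 were at least 2-fold higher in the adult (42.9%), and Ctse, an endosomal aspartic protease, differed by -1.01.

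Of 9 clusters of lysosomal membrane proteins 3 were at least 2-fold higher in the adult (33.3%, median 0.45), among them Tmem192 with 1.30 and Ostm1 with 1.26. Of 10 clusters of sorting, fusion and biogenesis 2 were at least 2-fold higher in the adult, Rab38 with 1.22 and Vamp8 with 1.13, and the median was 0.39. That share, 20%, was below the 22.9% of the joined tables. The SNARE Stx8 differed by -0.69 and the adaptor subunit Ap3s2 by -0.44. Of 6 clusters of autophagy and lysosomal nutrient signalling 3 were at least 2-fold higher in the adult (50%, median 0.97), and Rragd, a GTPase that recruits the growth regulator mTORC1 to lysosomes, differed by 1.76.

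**Figure D3:**
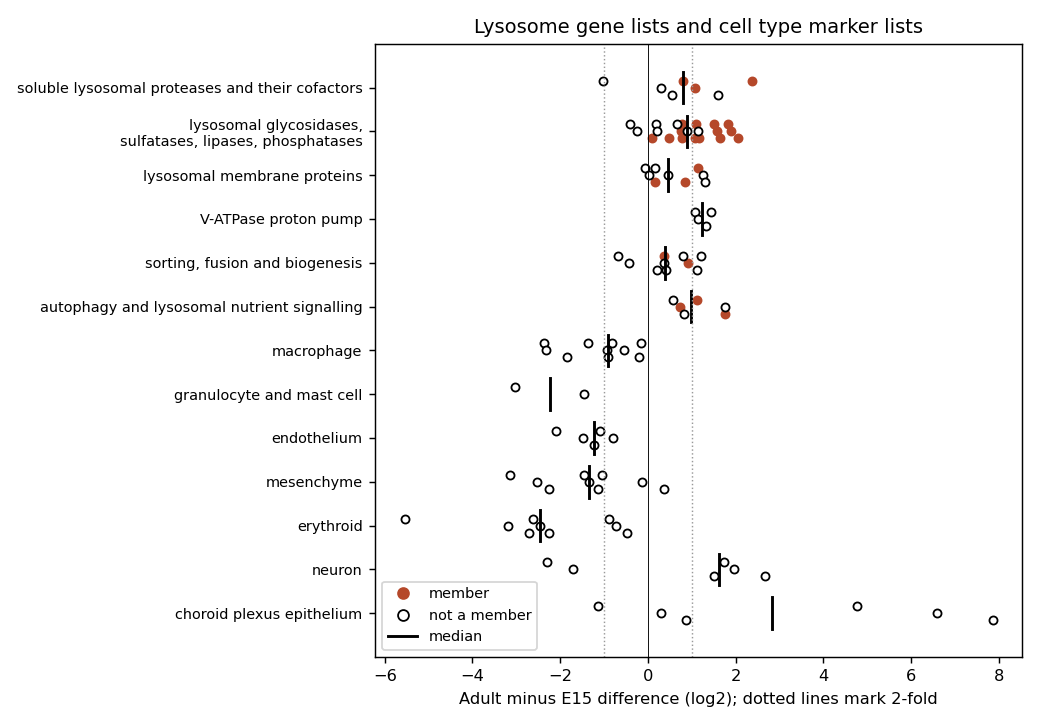
Adult minus E15 difference (log2) of each cluster of the 6 lysosome lists and of 7 cell type marker lists, with members filled, other clusters open, and a bar at each list's median. The 4 proton pump clusters lie between 1.08 and 1.44, and all 10 macrophage clusters lie below 0.

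Markers of cells that could contribute lysosomal RNA moved with age as well. Of 30 macrophage symbols, 10 were in the joined tables and all 10 were higher at E15, with differences from -2.36 (Mrc1) to -0.15 (Ptprc) and a median of -0.92. At least 2-fold higher at E15 were 4 of the 10 (40%, against 24.4% over the joined tables), and the adult value was the higher in 45.9% of all clusters. The antigen presentation genes Cd74 and H2-Aa, which the member rule left out, were higher in the adult by 3.16 and 2.53. Both granulocyte and mast cell clusters, all 5 endothelial clusters and all 9 erythroid clusters were also higher at E15, with medians of -2.24, -1.23 and -2.47, as were 8 of 9 mesenchymal clusters, with a median of -1.33. At least 2-fold higher at E15 were 2 of 2 granulocyte and mast cell, 4 of 5 endothelial, 6 of 9 erythroid and 7 of 9 mesenchymal clusters, beside the same 24.4%. Of 6 neuronal clusters 4 were at least 2-fold higher in the adult and 2 at E15, where the shares over the joined tables were 22.9% and 24.4%. The median of the neuronal clusters was 1.62. Camk2a (2.66), Slc17a7 (1.73) and Snap25 (1.52) were absent from the gene-level table, which also required passing the authors' test. Syt1, Nefm and Dcx were in it. Endothelial Tie1 and mesenchymal Pdgfra, past 2-fold at E15, were absent from it as well. Of 6 epithelial clusters 3 were at least 2-fold higher in the adult, beside the same shares, and 1, Lmx1a, at E15. The median of the epithelial clusters was 2.83, and the 3 were Kl with 4.78 and 2 clusters that both carry the symbol Prlr, with 7.87 for Prlr alone and 6.60 for the cluster shared with Agxt2. Enpp2 with 0.88 and Igf2 with 0.29 stayed below 2-fold. The epithelial list held 12 symbols, and both Prlr clusters count toward its median. The part of these cell types in the members' differences was not tested.

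Other compartments were described in the same tables, with the members removed. Endosomal clusters were close to the members, with 21 of 41 (51.2%) at least 2-fold higher in the adult and a median of 1.06, although 14.6% of them were at least 2-fold higher at E15. Clusters of the endoplasmic reticulum (42.1%), mitochondrion (37.4%), cytoplasmic vesicles (36.4%) and Golgi (32.3%) also had larger shares in the adult direction than the joined tables. Clusters of the nucleus ran the other way, with 11.9% at least 2-fold higher in the adult and 29.4% at E15. The adult direction was therefore not particular to the lysosome, and a cluster could be annotated to several of these compartments.

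**Figure D4:**
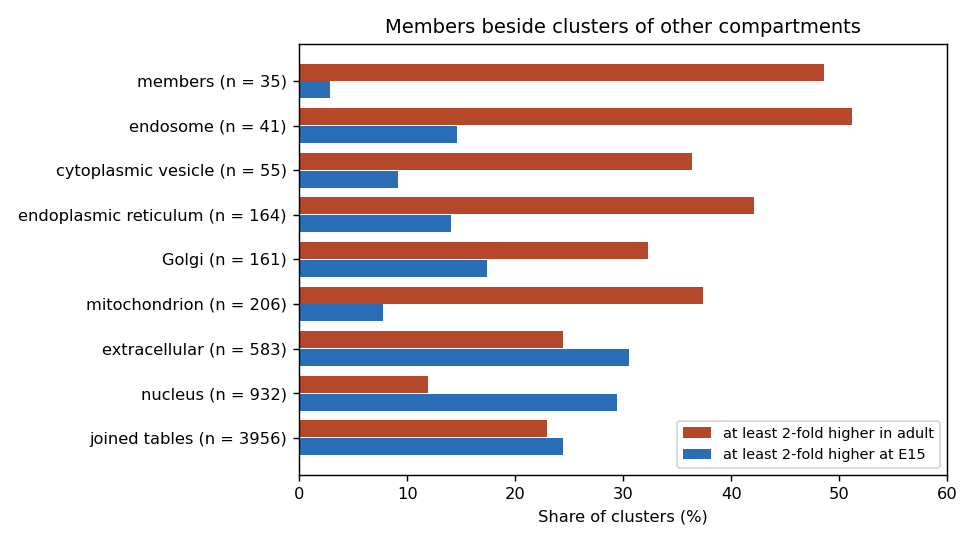
Share of clusters (%) at least 2-fold higher in the adult and at E15 among the 35 members, among clusters annotated to 7 other compartments with the members removed, and over all 3956 clusters of the joined tables. Members and endosomal clusters have nearly equal shares in the adult direction, 48.6% and 51.2%, and the members have the smallest share in the E15 direction, 2.86%.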

How the data were processed

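Total RNA of pooled plexuses went through 2 rounds of amplification and was hybridised to Affymetrix mouse exon arrays. The authors normalised the arrays, with Affymetrix Power Tools and RMA named in the submitters' processing notes (versions and genome build are not given in the sources used here), and deposited log2 values, merged to 1 column per age and centred within each cluster. The array checklist of the study names RMA for gene-level values and another method, PLIER, for exon-level values. Which of them made the values of the splicing list is not stated, so the joined values may not share 1 scale. For clusters in both tables the gene-level values were used, and their agreement with the splicing list's values was not examined. Only clusters passing the authors' test and 2-fold filter, or their splicing selection, are in the tables. Their fold change, direction and splicing index columns hold their own comparison of the ages and were not used, so the planned comparison with the splicing index was not run. A further table of clusters common to both lists was not used.

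The tables (1805 and 3369 clusters, 1218 in both) were joined by cluster, and adult minus E15 was computed with pandas 2.3.3. The number of arrays, 3 per age, limits the precision, and intensities of single arrays were not analysed here. With 1 merged value per age no test was possible, and counts at 2-fold are set beside the same share over all clusters. The members are named except 1, which is not reported here. Of the splicing list, members were to be named from 1.5-fold on, with the 3 closest to 0. The others are added for completeness and were chosen after their values were seen, as were the role groups. Symbols were matched to RefSeq by accession (all 34 member genes). Motifs were counted per gene, in any of its promoters. The counting was checked on simulated data. The members and lists were chosen with earlier results of these data known.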

Additional observations from a re-analysis of the deposited data

How the results depend on the processing

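No paired analysis was possible because the tables hold 1 merged value per age, and for the same reason no array could be left out in turn. Of the 35 members, 7 were at least 3-fold higher in the adult and 25 at least 1.5-fold. Shares over all clusters were not computed at these thresholds, so these counts cannot be set against a background. At 2-fold the count was 9 of 27 in the splicing list alone and 7 of 14 among members whose term did not rest on electronic annotation. The share at least 2-fold higher in the adult was then 33.3% and 50%, beside 48.6% for all members. Over all clusters that share was 17.6% in the splicing list and 22.9% in the joined tables. The 8 members absent from the splicing list all came from the gene-level table and were all at least 2-fold higher in the adult. In the gene-level table alone the median was 1.497, entry needing 2-fold, and 0 members were higher at E15, since Tmem9 is not in that table. Centring each age on its median over the joined tables added 0.15 to every difference, which turned Wdfy3 to 0.11 and Dnpep to 0.0043 and made 18 members at least 2-fold higher in the adult, against 25.7% of all clusters. Other sets were lysosome terms alone, no exclusions, 1-symbol clusters, 1 row per symbol, and the X-linked members left out (added after seeing the data). They held 30 to 45 clusters, of which 15 to 23 were at least 2-fold higher in the adult. The shares were 46.9 to 51.1%, beside 22.9% over the joined tables, and the medians 0.82 to 1.02. Restricting motifs to the bases before the start left the members' shares as they were. The planned comparison with the splicing index was not run, because that column holds the authors' own comparison.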

Other observations

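The 10 clusters that the member rule left out were all higher in the adult, against 45.9% of all clusters. Besides Cd74 and H2-Aa they included the lipid transporters Abca2 (difference 1.80) and Abca5 (1.34) and the peptide transporter Abcb9 (1.51). Gm2a, the activator of ganglioside breakdown, differed by 1.61 (3.05-fold), Ctsa, the protective protein of galactosidase, by 0.54 and Psap, the precursor of the saposins, by 0.31. Ctsa and Psap were in the splicing list only.

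Members on the X chromosome were Ids (2.06), Gla (1.58) and Vamp7 (0.92). The 148 X-linked clusters of the joined tables had a median of -0.20 and 23.0% of them were at least 2-fold higher in the adult, beside -0.16 and 22.8% for the 3787 other matched clusters.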
